A study of Mus musculus with 6 samples.

Results

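The barcodes described here carry a set of astrocyte markers in 6 single-cell RNA libraries of dissociated mouse brain, made with a droplet 3' kit. A barcode was a member when it held at least 1 UMI (unique molecular identifier, 1 captured RNA molecule) of at least 4 of 10 astrocyte markers. The markers were Aqp4, Gja1, Slc1a3, Ntsr2, Gpr37l1, Cldn10, Btbd17, Slc4a4, Bmpr1b and Fgfr3. A member also held fewer than 2 of 6 markers of other cells, namely P2ry12 (microglia), Cldn5 (endothelium), Kl (choroid plexus), Mog (oligodendrocytes), Pdgfra (oligodendrocyte precursors) and Foxj1 (ependyma). The rule found 5229 members among the 94144 barcodes kept of 95014, which had 500 or more UMIs from 300 or more genes and a mitochondrial share of 15% or less. They are called astrocyte-marker barcodes or members below, since the label astrocyte did not hold for most of them.

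The study compared 3 groups of 2 libraries each: wild-type mice given vehicle (WT vehicle), wild-type mice given bilirubin (WT bilirubin) and mice labelled TRPM2 Mg KO given bilirubin (knockout bilirubin). The labels do not expand "Mg", name no driver or allele of the knockout, and give only "brain cells" as the source. The sources used here give no strain, bilirubin dose, duration, age, sex or brain region. Nothing in the labels says that 2 libraries of a group came from separate animals, so each p-value rests on the spread of these libraries alone, and that spread may be technical.

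Astrocytes are glial cells whose processes wrap synapses and blood vessels. They clear glutamate and potassium from the extracellular space, feed neurons with lactate and cholesterol, couple to each other through gap junctions, and respond to injury and inflammation with a change of state called reactivity. Bilirubin is the product of haem breakdown that the liver conjugates, and TRPM2 is a calcium-permeable cation channel opened by ADP-ribose during oxidative stress.

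The number of members was 1330 and 1293 in the WT vehicle libraries, 1029 and 314 in WT bilirubin, and 1115 and 148 in knockout bilirubin, in the order of replicate 1 and 2, which is kept throughout. Their summed UMIs, on which every level below rests, were 2348752 and 3397061, 894976 to 3186996 in WT bilirubin, and 523202 to 3197749 in knockout bilirubin, so knockout replicate 2 is the least precise library. Levels are CPM, UMIs scaled to a common total of UMIs summed over the barcodes named. Libraries shared at most 1 member barcode per pair.

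Some libraries stood apart before any comparison. WT vehicle replicate 1 had the highest summed level of 12 neuronal markers in members, 17069 CPM against 1362 to 5519 CPM in the other 5 libraries. WT bilirubin replicate 2 had the lowest summed level of 10 microglia markers in members, 3489 CPM against 6473 to 7688 CPM elsewhere. Knockout replicate 2 had 277 CPM of 5 erythroid genes against 6146 to 45305 CPM elsewhere. The median mitochondrial share of members was 6.54% in WT bilirubin replicate 1 and 5.53% in knockout replicate 1, and 0.89% to 3.41% in the other libraries.

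The label was checked with 10 astrocyte genes that the rule did not use, the glutamate transporter gene Slc1a2 and the glutamine synthetase gene Glul among them. Their summed level in members was 5956 and 3536 CPM in WT vehicle, 3917 and 7721 CPM in WT bilirubin, and 4848 and 4293 CPM in knockout bilirubin. Barcodes with exactly 4 markers, the largest group of members at 755, 759, 536, 82, 566 and 66 barcodes, held 2535 to 4739 CPM. Barcodes with none of the 10 markers already held 717 to 3151 CPM.

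Microglia markers gave the opposite picture. Their sum was 4209 to 9518 CPM at exactly 4 markers and 5427 to 9679 CPM in barcodes with no astrocyte marker, ranges that overlap widely. Between 20.4% and 67.6% of members held at least 5 of the 10 microglia markers, beside 28.0% to 61.6% of barcodes with no astrocyte marker. Other classes were spread through both kinds of barcode too. At least 4 of 12 neuronal markers were held by 8.60% to 57.5% of members and 15.8% to 51.1% of barcodes with no astrocyte marker. For at least 4 of 5 erythroid genes, the shares were 0.676% to 85.2% and 0.525% to 82.2%. In each of the 6 libraries, the astrocyte sum at exactly 4 markers lay nearer to that at 0 markers than to that at 7 to 10.

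The sums changed most at the high end. With 7 to 10 markers, the summed astrocyte genes outside the rule reached 9058 and 6491 CPM in WT vehicle, 7085 and 10466 CPM in WT bilirubin, and 8870 and 7386 CPM in knockout bilirubin. Microglia markers in the same barcodes were at 2258 to 5852 CPM, so these too were not free of them. At least 5 of the 10 microglia markers were held by 53.3% and 60.8% of them in WT vehicle, 70.6% and 16.9% in WT bilirubin, and 70.1% and 72.2% in knockout bilirubin. In barcodes with no astrocyte marker, the shares were 54.0% and 59.9%, 61.6% and 28.0%, and 58.1% and 49.9%. Median UMIs were 2298 to 3950.5 at 7 to 10 markers and 1063 to 1581 at none. Members with 7 to 10 markers numbered 821, 137 and 153, 201 and 130, and 164 and 36 per library. They are described below by their values with no test, because the number 7 was chosen after these sums were seen.

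**Figure D1:**
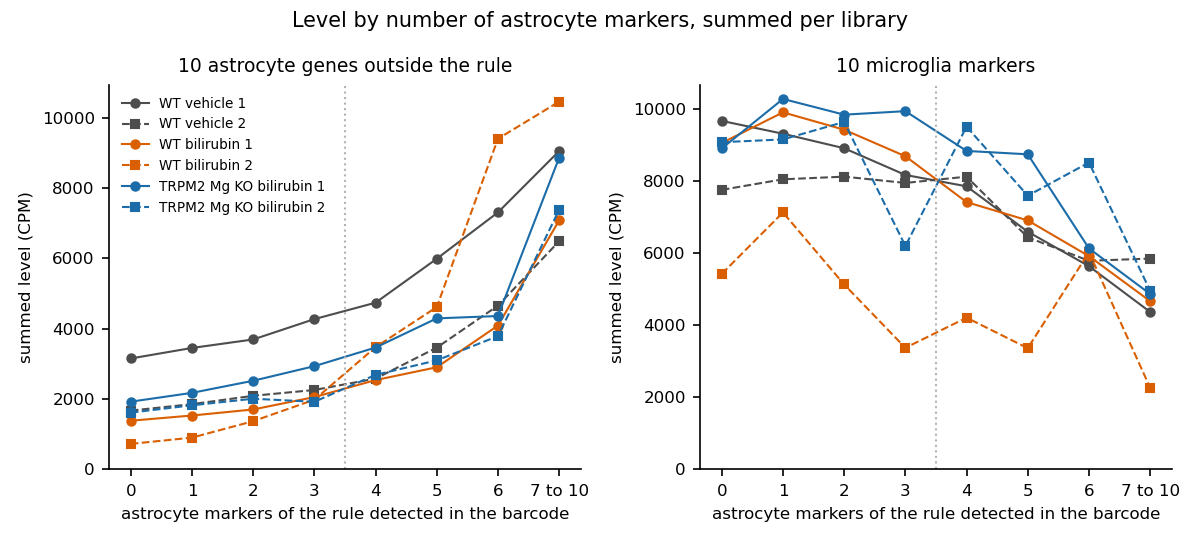
Summed level (CPM) of 10 astrocyte genes outside the rule (left) and of 10 microglia markers (right), by the number of rule markers detected in a barcode, 1 line per library; the dotted line marks the rule's minimum of 4. Astrocyte genes climb most between 4 and 7 to 10 markers, reaching 6491 to 10466 CPM, while microglia markers at 4 markers still lie at 4209 to 9518 CPM.

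Barcodes with 3 markers, just outside the rule, numbered 1889 and 2032, 1178 and 168, and 1201 and 179, and held 1917 to 4271 CPM of the astrocyte genes outside the rule. The 6 excluded markers removed 70 and 306, 354 and 36, and 527 and 733 barcodes that had enough astrocyte markers, which is more barcodes than the 148 members kept in knockout replicate 2. Members with at least 2 of 6 ependymal markers made up 10.2% and 13.9% of members in WT vehicle, 39.7% and 15.9% in WT bilirubin, and 10.8% and 41.9% in knockout bilirubin.

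Genes outside the rule with the highest ratio of member to other-barcode level were astrocyte genes. Gpc5, a heparan sulfate proteoglycan of the cell surface, was 10.9 times as high in members as in other barcodes, Tril, a toll-like receptor 4 interactor, 7.61 times, the secreted protease Htra1 7.14 times and the GABA transporter Slc6a11 6.07 times. In members with 7 to 10 markers the ratio was 31.5 for Gpc5, 21.6 for the plasma-protein-like gene Itih3, 17.3 for angiotensinogen (Agt) and 15.4 for the transcription factor Rfx4. Since members were chosen by genes that vary with these, the ratios describe the choice and were not tested.

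The markers of the rule themselves were low in barcodes that should lack them, but not absent. Aqp4, the water channel of astrocyte endfeet, had a UMI in 23.7% to 39.2% of members and in 1.93% to 12.5% of barcodes classed as microglia, at median depths of 1490 to 2891 and 1258 to 3254 UMIs. Slc1a3, the glutamate transporter GLAST, had one in 82.4% to 91.1% of members and in 18.4% to 43.8% of microglia barcodes. Slc1a2, which was not in the rule, had one in 87.2% to 94.1% of members and in 29.8% to 83.9% of microglia barcodes. Shares of barcodes with a UMI are therefore not read as expression here. Levels in other barcodes are given beside those of members for some genes only.

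Members made up 6.65% and 5.32% of kept barcodes in WT vehicle, 4.94% and 3.65% in WT bilirubin, and 6.85% and 3.58% in knockout bilirubin. Both WT bilirubin libraries lay below both WT vehicle libraries, while the knockout pair spanned the range of all the others. The exact permutation test, two-sided, gave p = 0.333 for WT bilirubin against WT vehicle and p = 1 for both knockout comparisons, and 0.333 is the smallest p that 2 against 2 libraries allow. With 7 to 10 markers required, the order turned: 0.685% and 0.629% in WT vehicle against 0.965% and 1.51% in WT bilirubin and 1.01% and 0.871% in knockout bilirubin.

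By this number of markers, chosen after the values were seen, the make-up of the members differed between WT vehicle and WT bilirubin. Members with 7 to 10 markers were 10.3% and 11.8% of members in WT vehicle, 19.5% and 41.4% in WT bilirubin, and 14.7% and 24.3% in knockout bilirubin, which overlapped WT bilirubin. A stricter rule, with at least 6 markers, no excluded marker and a limit on UMIs, gave overlapping shares of kept barcodes. These were 0.980% and 0.543% in WT vehicle and 0.634% and 1.54% in WT bilirubin. Median UMIs of members were 1490 and 2135 in WT vehicle and 2272 and 2219 in WT bilirubin. The part of depth in the number of markers was not tested. The part this plays in the level of any astrocyte gene summed over members was not tested. A sum over barcodes cannot tell apart fewer astrocytes among them and less RNA per astrocyte.

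**Figure D2:**
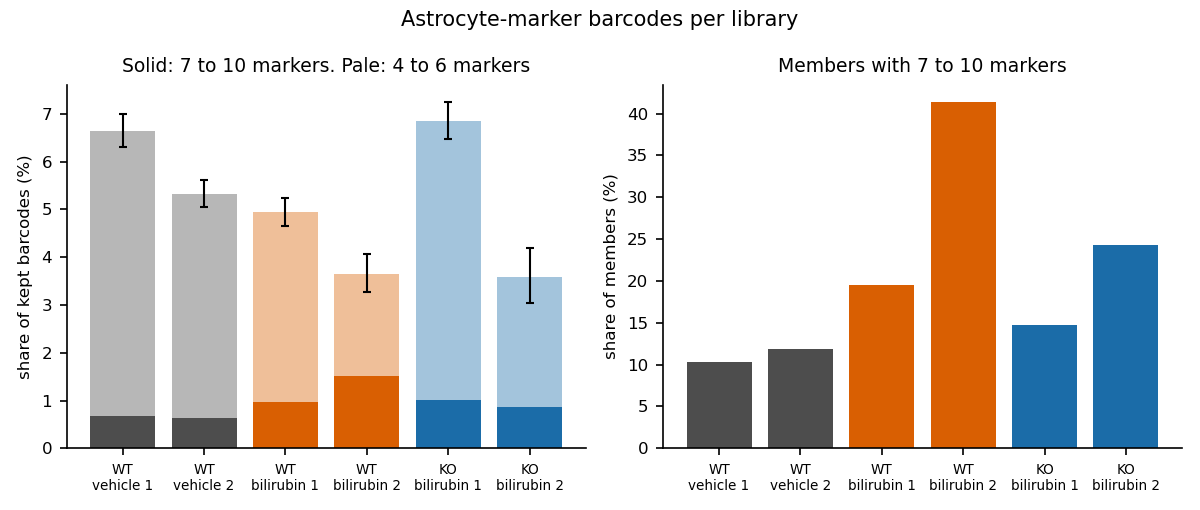
Left, members as a share of kept barcodes per library (%), solid for 7 to 10 markers and pale for 4 to 6, with the 95% exact binomial interval of the total, which covers counting error only. Right, members with 7 to 10 markers as a share of members (%), 10.3% and 11.8% in WT vehicle and up to 41.4% in WT bilirubin replicate 2.

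The knocked-out gene was looked at first. Trpm2 had 21 and 21 UMIs in members of WT vehicle (8.94 and 6.18 CPM), 16 and 7 in WT bilirubin (5.02 and 7.82 CPM), and 29 and 0 in knockout bilirubin (9.07 and 0 CPM). A count of 0 in knockout replicate 2 allows up to 5.73 CPM. The 3' tags of these libraries say nothing about a deletion elsewhere in the gene, and the labels do not say in which cells it was made, so these values check no label.

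Bilirubin in wild-type mice was compared with vehicle first. In members, 133 of 14065 genes passed edgeR's quasi-likelihood test at an adjusted p under 0.05, which is 0.946% of genes tested: 112 were higher (0.796%) and 21 lower (0.149%) in WT bilirubin. Of the 112, 1 was a gene of the rule and is not read as a test. Of the 112, 3 were in the lists of astrocyte genes (Lcn2, Lrg1 and Cd109), which have 206 tested genes. Of the 21, 2 were among the 12 neuronal markers (Bc1 and Rbfox3). DESeq2 called 81 genes (0.576%), 58 of them shared. At an unadjusted p under 0.05, edgeR had 1874 genes (13.3%).

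Lcn2, which encodes the siderophore-binding protein lipocalin 2 of the acute-phase response, was at 4.26 and 12.4 CPM in WT vehicle, 107 and 59.2 CPM in WT bilirubin and 14.4 and 21 CPM in knockout bilirubin. Both WT bilirubin libraries stood above the other 4. The log2 fold change of WT bilirubin over WT vehicle was 3.12 ± 0.47 (SE), with an adjusted p of 0.0187 by edgeR. Lrg1, another acute-phase protein, was at 1.7 and 0.883 CPM in WT vehicle and 13.2 and 7.82 CPM in WT bilirubin, a log2 difference of 2.98 ± 0.65 (edgeR adjusted p = 0.0423) that rests on 4 and 3 UMIs in WT vehicle. Other barcodes of the same libraries showed Lcn2 at similar heights, 5.03 and 12.2 CPM in WT vehicle and 77.6 and 107 CPM in WT bilirubin.

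Clec3b, the plasminogen-binding protein tetranectin, was at 9.79 and 3.53 CPM in WT vehicle members and 72.5 and 61.5 CPM in WT bilirubin members (log2 3.24 ± 0.47, edgeR adjusted p = 0.0187). Knockout members held 40.7 and 72.6 CPM, so all 4 bilirubin libraries stood above both vehicle libraries. Libraries did not overlap for 41.8% of genes tested in WT bilirubin against WT vehicle and 36.4% in knockout bilirubin against WT vehicle. The share of genes with all 4 bilirubin libraries above is not given. Lrp2, the endocytic receptor megalin, rose by 3.23 ± 0.61 on the log2 scale (edgeR adjusted p = 0.0305). Cd109, a membrane glycoprotein that binds transforming growth factor beta, was at 6.81 and 5 CPM in WT vehicle and 26 and 24.6 CPM in WT bilirubin, a log2 rise of 1.96 ± 0.44 (edgeR adjusted p = 0.0469).

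Dnah3, Wdr49 and Nuf2 were among the highest risers too. Dnah3, a dynein heavy chain of motile cilia, was at 5.11 and 2.94 CPM in WT vehicle and 34.2 and 22.3 CPM in WT bilirubin, a rise of 2.74 ± 0.43 on the log2 scale (edgeR adjusted p = 0.0187). Wdr49 rose by 2.66 ± 0.41, and Nuf2, a kinetochore subunit, by 3.23 ± 0.48. Ependymal cells carry motile cilia, and 5 ependymal markers outside the rule had a median log2 change of 0.93 in members, all 5 with no overlap between the groups, beside 0.05 for all genes (libraries did not overlap for 41.8% of genes tested). Their summed level with Foxj1 was 487 and 384 CPM in WT vehicle, 1232 and 1178 CPM in WT bilirubin, and 584 and 1044 CPM in knockout bilirubin.

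When members with 2 or more ependymal markers were left out, an alternative added after the data were seen, 5 genes were called in place of 133, with 1 shared. Lcn2 then rose by 5.07 on the log2 scale (edgeR adjusted p = 0.000344), while Clec3b kept a log2 value of 2.64 and no longer passed (edgeR adjusted p = 0.278). Among the 133 genes called in all members was Scgb3a1, a secretoglobin, with 2 and 0 UMIs in WT vehicle members and 88 and 1 UMIs in WT bilirubin members. It rests on WT bilirubin replicate 1 alone, no fold is given for it, and it no longer passed once these ependymal-marker members were left out.

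The 21 genes that fell included Bc1, a non-coding RNA of neuronal dendrites, at 14647 and 3819 CPM in WT vehicle members, 1195 and 846 CPM in WT bilirubin members and 2417 and 3515 CPM in knockout members. Both vehicle libraries were the highest of the 6, replicate 1 by far. Bc1 fell by 3.31 ± 0.71 on the log2 scale (edgeR adjusted p = 0.0416), and without WT vehicle replicate 1 it was lower by 2.12 on that scale, with an adjusted p of 0.215. Other barcodes held 18353 and 3794 CPM in WT vehicle and 1243 and 1128 CPM in WT bilirubin.

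Rbfox3, which encodes the neuronal nuclear protein NeuN, was at 113 and 80.7 CPM in WT vehicle members and 38 and 16.8 CPM in WT bilirubin members (edgeR adjusted p = 0.0469). The synaptic protein gene C1ql3 fell by 2.59 ± 0.44 and the translation factor gene Eef1a2 of neurons by 2.31 ± 0.49 on the log2 scale. Nell1, Cntnap5a, the potassium channel gene Kcnc1, the junctophilin gene Jph3, Slc35f4 and Pgm2l1 also fell. All 12 neuronal markers had a log2 change below 0, with a median of -1.72, and their sum in members followed the sum in other barcodes (21393 and 5422 CPM in WT vehicle, 2253 and 2235 CPM in WT bilirubin).

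The same genes were then read in the other barcodes. All 112 genes that rose in members also had a higher mean in the other barcodes of WT bilirubin, with a median log2 ratio of 2.04 in members and 0.98 in other barcodes. All 21 that fell were lower in other barcodes as well, with medians of -2.09 and -1.35. Of the 133, 16 passed the test of the difference described below: 14 that rose and 2 that fell.

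The count depended on single libraries. Knockout libraries are in the fit though not in this contrast. Without knockout replicate 1, 0 genes were called, and without knockout replicate 2, 17 were. Without WT bilirubin replicate 1 the count was 312, and without replicate 2 it was 244. A fit of only the 4 libraries compared called 0 genes, with Lcn2 at an edgeR adjusted p of 0.0827. Choosing members after thinning barcodes to equal depth gave 0, and a stricter member rule gave 4.

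Astrocyte genes by role showed few calls. Glutamate uptake and recycling had 0 of 8 tested genes called, with a median log2 change of 0.10. Slc1a2, the main glutamate transporter, was at 2398 and 1421 CPM in WT vehicle, 1318 and 2722 CPM in WT bilirubin and 1865 and 1460 CPM in knockout bilirubin. Its WT bilirubin libraries lay on both sides of the vehicle libraries. Glul was at 888 and 584 CPM, 623 and 815 CPM, and 897 and 721 CPM in the same order, and the groups overlapped.

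Potassium, water and gap junction genes had 0 of 10 called, and all 10 had a log2 change above 0, with a median of 0.50. Kcnj10, the inward rectifier Kir4.1, was at 80.9 and 39.2 CPM in WT vehicle and 62.4 and 125 CPM in WT bilirubin, with overlap. GABA and glycine handling had 0 of 8 called at a median of 0.36. Slc6a11, the astrocyte GABA transporter GAT-3, was at 150 and 99.5 CPM in WT vehicle, 171 and 440 CPM in WT bilirubin and 128 and 189 CPM in knockout bilirubin. Both WT bilirubin libraries were above vehicle, and the log2 value was 1.10 ± 0.45 (edgeR adjusted p = 0.288). Without WT bilirubin replicate 2 the Slc6a11 value was 0.33 (adjusted p = 0.793).

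Fuel use and lipid supply had 0 of 14 and 0 of 19 called, with medians of 0.37 and 0.18. The glucose transporter gene Slc2a1 was at 61.3 and 35 CPM in WT vehicle and 134 and 116 CPM in WT bilirubin, with knockout libraries between at 84.1 and 86 CPM. Apoe, the lipoprotein that carries cholesterol between brain cells, was at 4524 and 3755 CPM in WT vehicle, 7009 and 8039 CPM in WT bilirubin and 7563 and 6361 CPM in knockout bilirubin. All 4 bilirubin libraries stood above both vehicle libraries for Apoe in members. This also held in those with 7 to 10 markers (6403 and 6188 CPM, 9763 and 8953 CPM, 10956 and 8314 CPM). The Apoe difference did not pass the test in members, and the share of all genes in this order is not given. Of the 16 genes of haem, metal and antioxidant handling, which include the haem oxygenase gene Hmox1 and the biliverdin reductase gene Blvrb, 0 were called and the median was -0.15.

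Among reactivity genes, 1 of 11 tested pan-reactive genes rose (Lcn2, median of the list 0.87), 1 of 7 genes of the list known as A2 rose (Cd109, median 1.04) and 0 of 13 of the list known as A1 passed (median 0.28). The acute-phase, STAT3, C/EBP and NF-kB list had 1 of 12, Lrg1, with a median of 0.31. Vim, which encodes the filament protein vimentin, was at 110 and 86.8 CPM in WT vehicle, 399 and 251 CPM in WT bilirubin and 259 and 262 CPM in knockout bilirubin. All 4 bilirubin libraries were above both vehicle libraries, and the log2 value of 1.58 ± 0.40 missed the threshold (edgeR adjusted p = 0.0713). Such an order is not particular to Vim. Over all genes tested, WT bilirubin did not overlap vehicle for 41.8% and knockout bilirubin for 36.4%.

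Gfap, the classical filament of reactive astrocytes, did not follow Vim. It was at 46 and 34.7 CPM in WT vehicle, 58.4 and 38 CPM in WT bilirubin and 35 and 49.7 CPM in knockout bilirubin, and all groups overlapped. The interferon list had 0 of 14 called (median 0.35), the glucocorticoid list 0 of 9 (0.016) and the thyroid hormone list 0 of 8 (0.0027). The immediate-early list, whose genes also answer to tissue dissociation, had 0 of 13 called with a median of 0.46, and Dusp1 of that list was at 132 and 88.6 CPM in WT vehicle against 238 and 181 CPM in WT bilirubin.

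Of the lists not yet given, astrocyte transcription factors had 0 of 14 called with all 14 above 0 (median 0.38), synapse, matrix and phagocytosis genes 0 of 12 (0.28), transmitter and lipid receptors 0 of 7 (0.37), fibrous and surface astrocyte genes 0 of 5 (0.33) and neurogenic niche genes 0 of 5 (0.81).

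Genes known to mark astrocytes outside the telencephalon had the highest median of the astrocyte lists, 1.29 over 5 tested genes, beside -0.08 over 4 telencephalic genes and 0.05 over all genes; 0 of either list were called in members. Agt, one of them, was at 86.9 and 24.7 CPM in WT vehicle, 112 and 217 CPM in WT bilirubin and 94.8 and 128 CPM in knockout bilirubin. Every bilirubin library stood above both vehicle libraries (log2 1.40 ± 0.49, edgeR adjusted p = 0.197 for WT bilirubin over WT vehicle). The share of all genes in this order is not given. The Agt value was 0.77 (adjusted p = 0.753) without WT vehicle replicate 2, 0.93 (0.386) without WT bilirubin replicate 2 and 2.47 (0.0272) without WT vehicle replicate 1.

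Members with 7 to 10 markers held Agt at 199 and 52 CPM, 297 and 321 CPM, and 273 and 303 CPM, and Slc6a11 at 273 and 229 CPM, 449 and 674 CPM, and 336 and 395 CPM. Vehicle libraries were the lowest for both genes there. In all members this held for Agt but not for Slc6a11, where knockout replicate 1 lay below WT vehicle replicate 1. Thinned to 1000 UMIs, 15.3% and 16.3% of these barcodes in WT vehicle, 27.9% and 29.9% in WT bilirubin and 24.8% and 8.33% in knockout bilirubin held UMIs of the non-telencephalic genes and none of the telencephalic ones. Telencephalic genes alone were held by 32.1% and 29.4%, 24.4% and 26.8%, and 28.6% and 22.2%. Microglia barcodes, thinned alike, gave 2.05% to 7.68% and 4.93% to 13.6%.

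**Figure D3:**
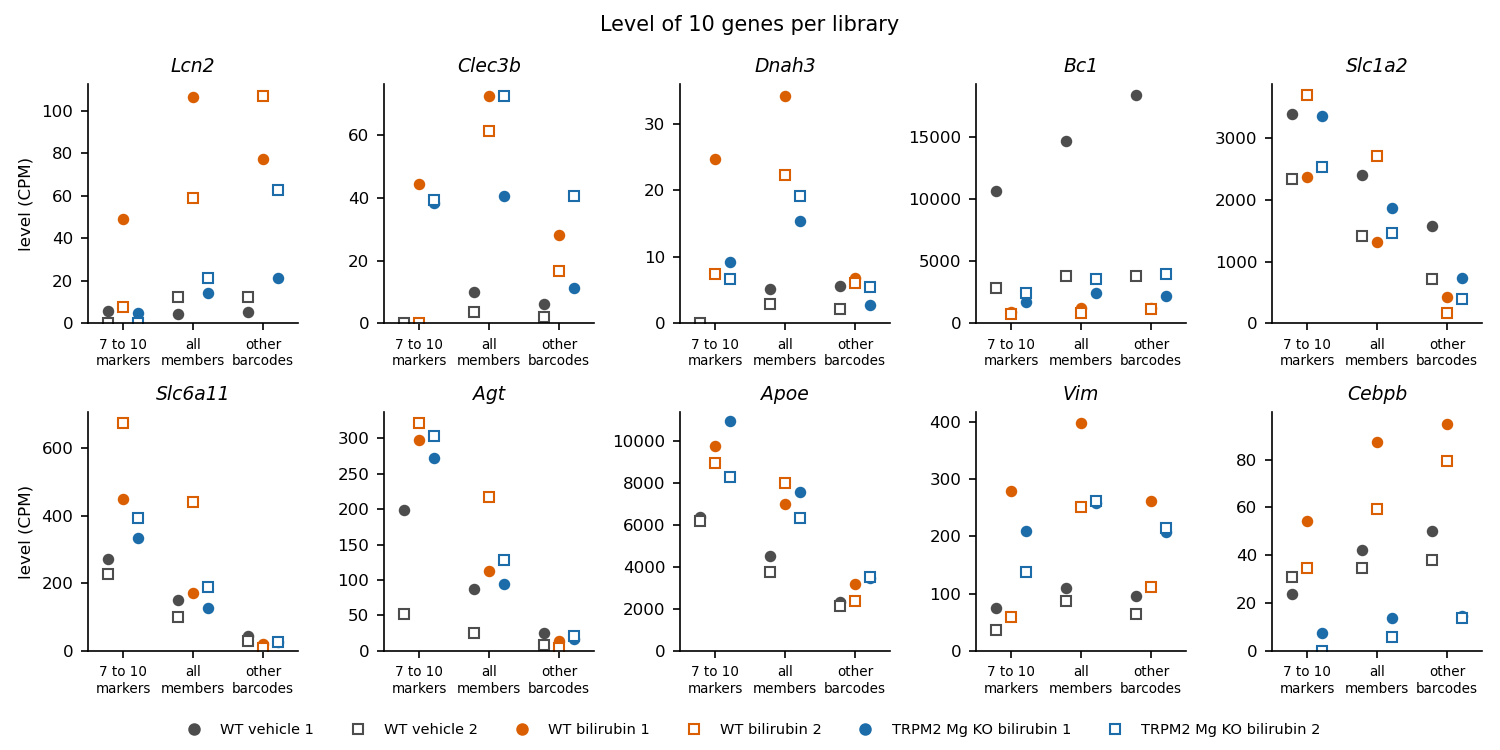
Level (CPM) of 10 genes per library in members with 7 to 10 markers, in all members and in all other barcodes; colours are groups, filled circles replicate 1 and open squares replicate 2. Lcn2 and Cebpb show the same order of groups in members and in other barcodes, while Slc1a2 and Slc6a11 have their lowest values in other barcodes of WT bilirubin replicate 2 (162 and 8.02 CPM).

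**Figure D4:**
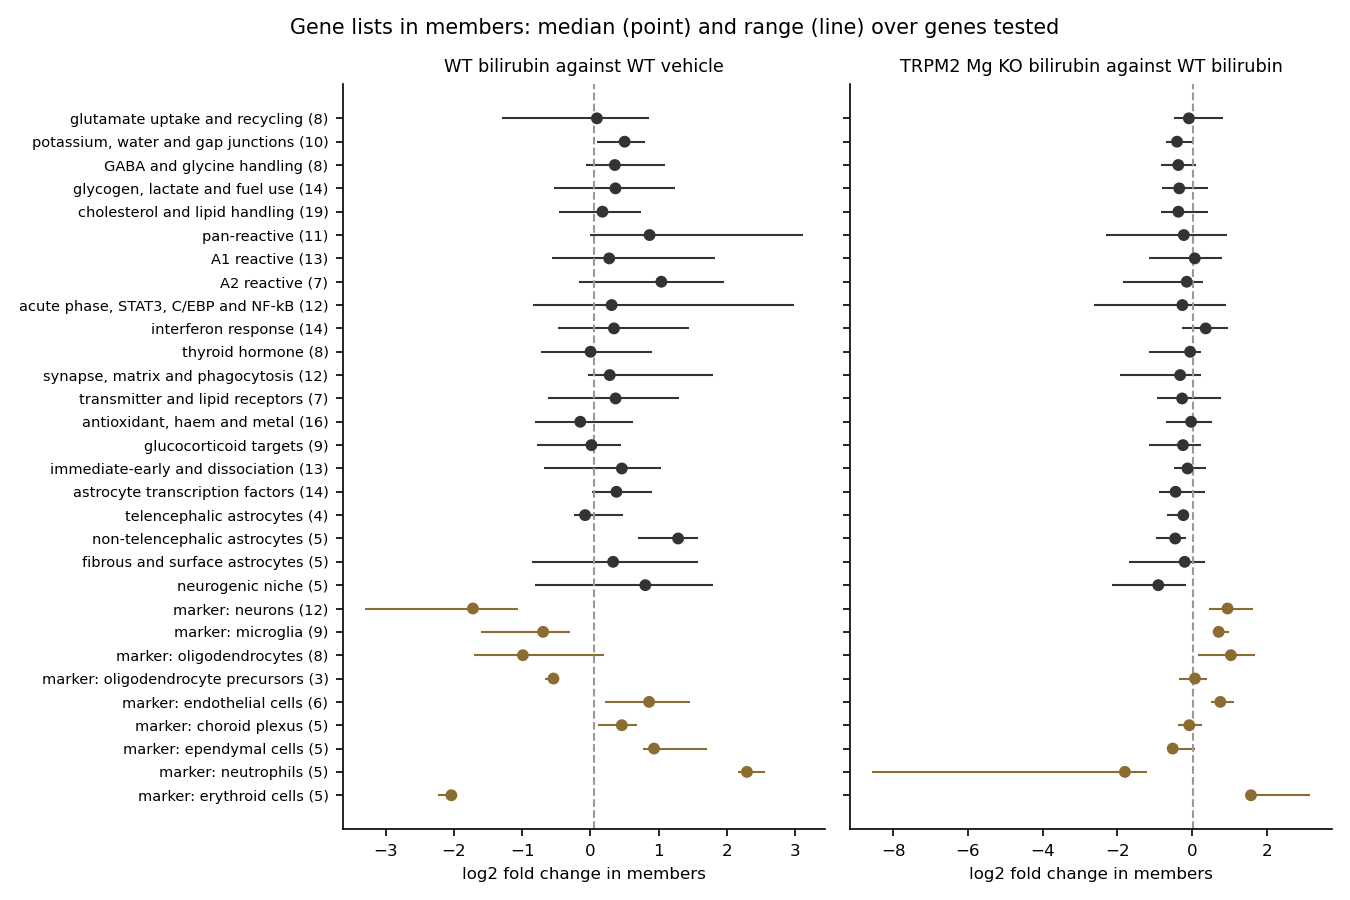
Log2 fold change in members by gene list, with the number of genes tested in brackets, for WT bilirubin against WT vehicle (left) and knockout against WT bilirubin (right): points are medians, lines the lowest to the highest gene, and the dashed line the median of all genes. Brown lists are markers of other cells. Neuronal markers lie at -1.72 on the left and at 0.95 on the right.

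Marker lists of other cells had medians on both sides of 0. In members, neutrophil markers had a median log2 change of 2.30 for WT bilirubin against WT vehicle, endothelial markers 0.86, microglia markers -0.69, oligodendrocyte markers -0.99 and erythroid genes -2.04. Choroid plexus markers had 0.46, with a summed level of 9454 CPM in WT vehicle replicate 1 and 35123 to 58723 CPM in the other libraries. Of these and the ependymal markers, 0 were called, and of neuronal markers 2 were called lower. The part of RNA from other cells in the results on members was not tested.

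The knockout was then compared with wild type, both given bilirubin. In members, 0 of 14065 genes were called by edgeR (0%), 723 had an unadjusted p under 0.05 (5.14%), and DESeq2 called 1 (0.00711%). The gene DESeq2 called was Cebpb (adjusted p = 0.00624), a transcription factor of acute-phase and inflammatory genes. It was at 42.1 and 34.7 CPM in WT vehicle, 87.5 and 59.2 CPM in WT bilirubin and 13.8 and 5.73 CPM in knockout bilirubin. The knockout values rest on 44 and 3 UMIs.

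Both knockout libraries lay below all 4 wild-type libraries for Cebpb, and the log2 value of -2.64 ± 0.42 for knockout against WT bilirubin had an edgeR adjusted p of 0.0756. Leaving out any 1 of the 4 wild-type libraries gave adjusted p-values from 0.0012 to 0.0291, all past the threshold. Without knockout replicate 1 the adjusted p was 1, and without replicate 2 it was 0.562, at log2 values of -3.56 and -2.40. Other barcodes showed the same order, with 50.1 and 37.9 CPM, 95.1 and 79.3 CPM, and 14.4 and 13.7 CPM. Members with 7 to 10 markers held 23.7 and 30.8 CPM, 54.3 and 34.5 CPM, and 7.66 and 0 CPM, where 0 allows up to 19.7 CPM.

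Lcn2 was lower in both knockout libraries than in both WT bilirubin libraries (log2 -2.30 ± 0.49), with an edgeR adjusted p of 0.731. Fkbp5, a co-chaperone induced by glucocorticoids, was at 34.5 and 43.6 CPM in WT bilirubin and 17.8 and 13.4 CPM in knockout bilirubin, and did not overlap either (libraries did not overlap for 29.8% of genes). In all lists, 0 genes were called. Medians were -0.41 for potassium, water and gap junctions, -0.44 for astrocyte transcription factors, -0.45 for non-telencephalic genes and 0.36 for the interferon list, beside 0.01 for all genes.

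Microglia markers had a median of 0.71 in this comparison, with all 9 tested markers not overlapping, and neuronal markers 0.95. Sums in members went from 6473 and 3489 CPM of microglia markers in WT bilirubin to 7688 and 7661 CPM in knockout bilirubin. Members with 7 to 10 markers were 19.5% and 41.4% of members in WT bilirubin and 14.7% and 24.3% in the knockout, a description of the rule itself. The part of either in the medians above was not tested.

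Knockout bilirubin against WT vehicle gave 0 called genes in members by edgeR (0%), 613 at an unadjusted p under 0.05 (4.36%) and 4 by DESeq2 (0.0284%). The comparisons of WT bilirubin and of the knockout with WT vehicle share the vehicle libraries. Side by side, the median of the interferon list was 0.35 for WT bilirubin and 0.79 for knockout bilirubin against vehicle, with 0 genes called in either. For non-telencephalic genes it was 1.29 and 0.61.

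Whether members moved differently from other barcodes of the same libraries was tested in 1 model over 12 sums, with the library as a block. For WT bilirubin against WT vehicle, 176 of 18533 genes passed (0.95%), 163 with a difference above 0 (0.88%) and 13 below 0 (0.0701%), beside 2063 (11.1%) at an unadjusted p under 0.05. Of the 163, 9 were genes of the rule, which are not read as tests, and 30 were in the astrocyte lists, which have 214 tested genes. Members were chosen by markers that vary with other astrocyte genes. Those with 7 to 10 markers were 10.3% and 11.8% of members in WT vehicle against 19.5% and 41.4% in WT bilirubin. The part of this choice in the differences below was not tested.

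Slc6a11 had a difference of 2.39 ± 0.40 on the log2 scale (edgeR adjusted p = 0.00402). Its member levels are given above, and in other barcodes it was at 44.4 and 29.9 CPM in WT vehicle and 21 and 8.02 CPM in WT bilirubin. Both WT bilirubin libraries were thus above WT vehicle in members and below it in other barcodes. The rise in members alone was not called, and knockout members overlapped WT vehicle. Agt had a difference of 2.32 ± 0.41 (edgeR adjusted p = 0.00688), with 24.8 and 8.27 CPM in other barcodes of WT vehicle and 14.3 and 3.67 CPM in those of WT bilirubin. Itih3, listed with both as non-telencephalic, differed by 2.19 ± 0.43 and did not pass without WT bilirubin replicate 2.

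For Slc1a2 the groups overlapped in members and not in other barcodes. It had a difference of 1.86 ± 0.43 (edgeR adjusted p = 0.0216), with the member levels given above. In other barcodes it was at 1585 and 708 CPM in WT vehicle, 430 and 162 CPM in WT bilirubin and 736 and 392 CPM in knockout bilirubin. Both WT bilirubin libraries were below both vehicle libraries there, and without WT bilirubin replicate 2 the difference was 0.66 with an adjusted p of 0.512.

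The same form was common. Of the 163 genes, 130 had a higher mean in members and a lower mean in other barcodes of WT bilirubin, 13 were lower in both and 20 higher in both; medians of the log2 ratios were 0.67 in members and -0.89 in other barcodes. By list, genes called above 0 were 5 of 10 for potassium, water and gap junctions, 4 of 8 for GABA and glycine handling, 6 of 12 for synapse, matrix and phagocytosis, 3 of 5 for non-telencephalic astrocytes, 3 of 14 for fuel use and 1 of 19 for lipid handling. Over all genes tested the share was 0.88%. Members were chosen by markers that vary with such genes, so these counts are not read as a response of any function. The list medians were 1.26, 1.14, 1.46, 2.19, 0.53 and 0.47, beside -0.01 for all genes. For the pan-reactive, A1, A2, interferon and glucocorticoid lists, 0 genes were called, with medians of 0.08, -0.10, 0.15, 0.03 and 0.11.

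Genes at low levels also passed. Thbs4, a thrombospondin that promotes synapse formation, was at 3.41 and 2.06 CPM in WT vehicle members and 11.9 and 7.82 CPM in WT bilirubin members, against 4.47 and 1.32 CPM and then 1.35 and 0.929 CPM in other barcodes (difference 2.89 ± 0.59, edgeR adjusted p = 0.0105). Egfl6, a secreted matrix protein, differed by 2.73. The matrix proteoglycan gene Bcan differed by 1.97 ± 0.40 and Kcnj10 by 1.61 ± 0.29, and neither passed without WT bilirubin replicate 2. Thbs4 passed in 9 of 14 alternatives and Egfl6 in 6. The 13 genes below 0 included Mag of myelin, at 43.4 and 17.7 CPM in WT vehicle members and 14.1 and 6.7 CPM in WT bilirubin members, and Nefh, the heavy neurofilament.

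These calls depended strongly on the setting. DESeq2 called 2 genes in place of 176, and edgeR with median-of-ratios size factors called 70, all shared. Without WT bilirubin replicate 2, 34 genes were called, and without WT bilirubin replicate 1, 1324. Without WT vehicle replicate 1 the count was 54, and without knockout replicate 1 or 2 it was 408 or 412. Slc6a11 and Agt passed in 13 of 14 alternatives, all but DESeq2 (adjusted p = 0.603 and 0.619), with differences from 1.11 to 3.91. The lowest of these came without WT bilirubin replicate 2, at 1.12 for Slc6a11 and 1.11 for Agt.

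**Figure D5:**
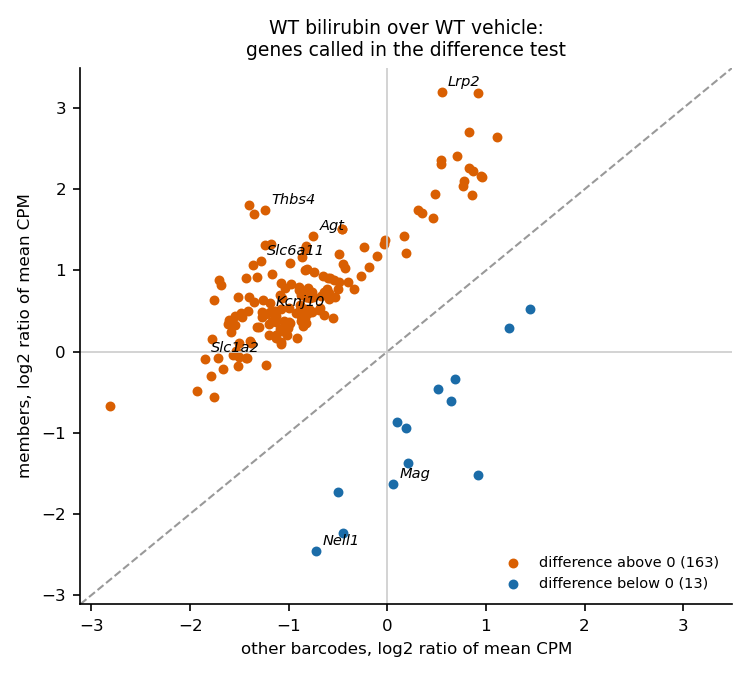
Log2 ratio of the mean level in WT bilirubin over WT vehicle, in other barcodes (horizontal) and in members (vertical), for the 176 genes called in the test of the difference; the dashed line marks equal ratios. Of 163 genes above the line, 130 lie in the upper left, higher in members and lower in other barcodes.

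For the knockout against WT bilirubin, 11 of 18533 genes differed between members and other barcodes (0.0594%), 6 above (0.0324%) and 5 below 0 (0.027%). Of the astrocyte lists, 0 genes were among them. DESeq2 called 0, and edgeR had 1030 genes (5.56%) at an unadjusted p under 0.05. Tril was at 85 and 280 CPM in WT bilirubin members and 80.4 and 65 CPM in knockout members, and at 8.86 and 3.97 CPM and then 14.8 and 12.9 CPM in other barcodes (difference -2.09 ± 0.42, edgeR adjusted p = 0.0251). The high value is that of WT bilirubin replicate 2, and without it Tril no longer passed. Ccn1, a matrix-bound signalling protein, was at 155 and 106 CPM in WT bilirubin members and 69.4 and 42 CPM in knockout members, with overlap of the groups in other barcodes. The Ccn1 difference of -1.63 was lost in 6 of 14 alternatives, and was -0.14 with the stricter member rule.

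Median-of-ratios size factors gave 0 calls in place of 11. Several of the other genes are known from other cells. Leaving out 1 library gave 15 to 759 genes, the most without WT bilirubin replicate 1. Slpi, a protease inhibitor, the cytokine gene Il1b and Wfdc17 are expressed by myeloid cells, and differed by 2.04, 1.89 and 1.82 on the log2 scale. Ngp and Prtn3 encode granule proteins of neutrophil precursors. Ngp had 625 and 41 UMIs in WT bilirubin members and 1 and 0 UMIs in knockout members, so no fold is given. In members with 7 to 10 markers Il1b and Wfdc17 turned in sign, and Ngp was at 8.63 and 4.94 CPM and then 0 in both knockout libraries, where 0 allows up to 4.60 and 19.7 CPM.

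For the knockout against WT vehicle, 2 genes differed (0.0108%), 1 above and 1 below 0 (0.0054% each), with 716 (3.86%) at an unadjusted p under 0.05 and 0 by DESeq2. The gene below 0 was Ngp. The gene above 0 was Npy, neuropeptide Y, at 26.8 and 58 CPM in WT vehicle members, 96 and 77.1 CPM in WT bilirubin members and 106 and 111 CPM in knockout members. All 4 bilirubin libraries were above both vehicle libraries, an order whose share over all genes is not given. Other barcodes held 35.4 and 27.6 CPM, 24 and 19.4 CPM, and 18.2 and 22.5 CPM.

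The difference for Npy was 1.89 ± 0.29 (edgeR adjusted p = 0.00268), and without WT vehicle replicate 1 it was 1.29 with an adjusted p of 1. With members chosen after thinning barcodes to equal depth, the Npy difference was 0.27 with an adjusted p of 1, and DESeq2 gave an adjusted p of 0.235. In members with 7 to 10 markers Npy was at 20.7 and 15.4 CPM in WT vehicle, 23.4 and 7.4 CPM in WT bilirubin, and 52.1 and 276 CPM in knockout bilirubin. There the 2 WT bilirubin libraries overlapped with vehicle, and knockout replicate 2, with 36 such barcodes, stood far above the rest.

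In barcodes with 7 to 10 markers, 3 transport and metabolism genes overlapped between WT vehicle and WT bilirubin. Slc1a2 was at 3402 and 2348 CPM, 2372 and 3699 CPM, and 3357 and 2534 CPM, and Glul at 1162 and 833 CPM, 956 and 1059 CPM, and 1223 and 974 CPM; for both genes the groups overlapped. Aldoc, the brain form of aldolase, was at 1227 and 902 CPM, 1984 and 1160 CPM, and 1540 and 1185 CPM.

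Some genes in these barcodes did separate vehicle from WT bilirubin. In all members, libraries of these groups did not overlap for 41.8% of genes tested, and the share in these barcodes is not given. The separation of the genes below is therefore a description and not a result about them. Slc2a1 was at 53.3 and 46.2 CPM in WT vehicle and 131 and 109 CPM in WT bilirubin, with 73.6 and 59.2 CPM in the knockout. Dusp1 was at 50.4 and 57.7 CPM, 176 and 123 CPM, and 82.7 and 105 CPM. The calcium-binding protein gene S100b was at 450 and 244 CPM in WT vehicle, above 179 and 175 CPM in WT bilirubin and 170 and 224 CPM in the knockout. Mt3, a metallothionein, was highest in WT vehicle at 10392 and 6169 CPM against 4071 and 4783 CPM and 4070 and 5687 CPM, and it was higher in other barcodes of WT vehicle replicate 1 too (7305 CPM). The thyroxine transporter gene Slco1c1 was at 305 and 291 CPM, 279 and 313 CPM, and 564 and 336 CPM. It was highest in both knockout libraries and overlapped between WT vehicle and WT bilirubin.

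The summed level of the 13 pan-reactive genes in the same barcodes was 196 and 212 CPM in WT vehicle, 709 and 168 CPM in WT bilirubin and 573 and 428 CPM in knockout bilirubin. WT bilirubin replicate 1 and both knockout libraries were above vehicle, and WT bilirubin replicate 2 was below it. Other barcodes held 280 and 298 CPM, 785 and 399 CPM, and 815 and 922 CPM of these genes. Gfap was at 35.6 and 36.6 CPM, 43.2 and 27.1 CPM, and 53.6 and 26.3 CPM, and Lcn2 at 5.93 and 0 CPM, 49.3 and 7.4 CPM, and 4.60 and 0 CPM, so that WT bilirubin replicate 1 alone was high in Lcn2. Vim was at 74.1 and 36.6 CPM, 280 and 59.2 CPM, and 210 and 138 CPM, with WT bilirubin replicate 2 inside the vehicle range. RNA of other cells was still present, with Bc1 at 10626 and 2831 CPM, 919 and 698 CPM, and 1673 and 2396 CPM.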

How the data were processed

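The authors deposited raw UMI counts per gene and barcode for 6 libraries of 33696 genes, made with Cell Ranger 9.0.1 per the file headers. The submitters' processing notes name Cell Ranger 8.0.0, Scanpy 1.9.6 and, with no role, GRCm39 and mm10, so no coordinates are given. Barcodes needed at least 500 UMIs, 300 genes and at most 15% mitochondrial UMIs. No doublet caller was run; barcodes with 2 or more excluded markers were left out of the members. UMIs were summed per library over members and over the other kept barcodes, which include those left out by the excluded markers.

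Sums were tested with edgeR 4.0.16 in R 4.3.3 (quasi-likelihood, filterByExpr, TMM, group as the only term over 6 libraries, 3 residual degrees of freedom, Benjamini-Hochberg adjustment over all genes tested). The difference between members and other barcodes was fitted over 12 sums with the library as a block. DESeq2 1.42.0 was an alternative. Levels are plain CPM, and fold changes are edgeR's. Each ± value, called SE, is the size of the log2 value divided by the square root of the F statistic of edgeR's test. The code was tested on simulated data. Tables were handled with Python 3.11.15.

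Genes were named by rule: called genes with a mean of at least 5 CPM and no overlap between groups, the 10 highest and 10 lowest changes filled up to 20 by p in members and the 5 highest and 5 lowest differences against other barcodes, the 3 genes of each list with the smallest p, the genes of the rule, Trpm2, Cebpb and the 15 genes of highest member to other ratio. Predicted, ribosomal, mitochondrial and haemoglobin genes were counted, not named. Some genes the rule names are not reported here. Other genes given by levels, such as Gfap and Mt3, were chosen after their values were seen. Members, lists and tests were chosen with earlier results of these data known. Same-numbered libraries share only a number in the labels.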

Additional observations from a re-analysis of the deposited data

Results flagged for a closer look

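Each value here is a difference between 2 groups' log2 changes, taken in members and in other barcodes of the same libraries, and was tested as that difference. The part that choosing members by astrocyte markers plays in these values was not tested. For WT bilirubin against WT vehicle 176 genes differed, for the knockout against WT bilirubin 11, and for the knockout against WT vehicle 2.

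For WT bilirubin against WT vehicle, transporter and channel genes differed by 2.39 (Slc6a11), 1.86 (Slc1a2) and 1.61 (Kcnj10). Secreted and matrix genes differed by 2.89 (Thbs4), 2.73 (Egfl6), 2.32 (Agt), 2.19 (Itih3), 1.97 (Bcan) and 1.63 (Gpc5). Endocytic, fuel, lipid, hormone and transcription genes differed by 2.56 (Lrp2), 1.904 (Acsbg1), 1.87 (Dio2), 1.56 (Aldoc), 1.48 (Crym), 1.39 (Fabp7) and 1.14 (Hes5). The Lrp2 difference passed in 4 of 14 alternatives, with values from 0.42 to 7.94, and was lost without either WT vehicle library and without WT bilirubin replicate 1. Aldoc and Fabp7 passed in 6 of 14, Slc1a2 and Hes5 in 7, and Slc6a11 and Agt in 13. Genes below 0 were Nefh at -1.53, Nell1 at -1.42, Cntnap5a at -1.42, Mag at -1.40 and Bpnt1 at -1.24, which passed in 5 to 7 of 14 alternatives.

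For the knockout against WT bilirubin, Slpi differed by 2.04, Il1b by 1.89, Cntnap5a by 1.88 and Wfdc17 by 1.82, and below 0 were Prtn3 at -2.72, Tril at -2.09 and Ccn1 at -1.63. These passed in 6 (Prtn3) to 10 (Tril) of 14 alternatives. For the knockout against WT vehicle, Npy differed by 1.89. Ngp had fitted values of -6.84 and -7.10 in these comparisons, which rest on 1 and 0 UMIs in knockout members, depend on the prior count and are no bound.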

How the results depend on the processing

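For WT bilirubin against WT vehicle in members, the 133 calls became 81 with DESeq2, 610 without the low-count filter, 249 with only genes above the other barcodes, 0 with only the 4 libraries compared, 0 with the rule after thinning, 4 with the stricter member rule, 2 with at least 7 markers and 5 with fewer than 2 ependymal markers, the last pair of settings chosen after seeing the data; leaving out 1 library gave 0 to 312. For the knockout against WT bilirubin, 0 became 1 with DESeq2, 27 without the filter, 3 with 4 libraries, 1 with the stricter rule and 1 with fewer than 2 ependymal markers, and 0 to 95 without 1 library. For the knockout against WT vehicle, 0 became 4, 44, 13, 5 and 2 in the same order, 1 after thinning, 1 with at least 7 markers, and 0 to 36 without 1 library.

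The replicate block, which pairs libraries by number, gave 364, 2 and 3 calls. Deviations of same-numbered libraries correlated at -0.142, 0.0297 and 0.000346. With 2 libraries a group, these values cannot decide whether same-numbered libraries were paired. The labels give only the shared number.

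For members against other barcodes, the 176 calls became 2 with DESeq2, 70 with median-of-ratios size factors, 308 without the filter, 73 with the stricter barcode filter, 57 with the stricter rule, 115 with at least 7 markers and 370 with fewer than 2 ependymal markers, and 34 to 1324 without 1 library. The 11 became 0, 0 and 95 in the first 3 of these, 53 with the stricter rule, 30 and 128 with the last pair, and 15 to 759. The 2 became 0, 1 and 6, 1 with the barcode filter, 13 with the stricter rule, 6 and 6 with the last pair, 0 after thinning, and 3 to 24. At 7 or more markers, Il1b (-1.96) and Wfdc17 (-0.67) turned in sign for the knockout against WT bilirubin. The cause was not tested.

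The log2 ratio of mean member shares was -0.478 for WT bilirubin against WT vehicle, and 0.915 with at least 7 markers and 0.511 with the stricter rule. It was 0.28 for the knockout against WT bilirubin, and -0.399 and -1.03. It was -0.198 for the knockout against WT vehicle, and 0.515 with at least 7 markers and -0.518 with the stricter rule. With the rule after thinning, the ratios were -0.343, 0.121 and -0.222 in the same order of comparisons. Depth limits knockout replicate 2 most, with 148 members.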
